A study of Mus musculus with 48 samples.

Results

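The genes described here are 7 classical inflammatory cytokine genes: Tnf, Il1a, Il1b, Il6, Il10, Il18 and the interleukin 1 receptor antagonist gene Il1rn. They were taken by symbol from the 547 endogenous genes of a NanoString nCounter Mouse Immunology panel, in which colour-coded barcodes on hybridised RNA molecules are counted without amplification. The RNA was total RNA of epididymal white adipose tissue, a visceral fat depot, from mice of the strain C3H/HeOuJ, a C3H substrain with an intact Tlr4 gene. All 48 samples came from mice kept on their diet for 6 months with free access to food. The control diet was a commercial chow, with 8 samples. In the other 5 groups carbohydrate and fat each supplied 42% of calories. Of the custom diets, sucrose/palmitate had 8 samples, starch/palmitate had 7, and sucrose/oleate and starch/oleate had 9 each. The Western diet, a commercial adjusted fat diet, had 7. The 4 custom diets thus crossed 2 carbohydrates with 2 fats. The chow and Western diets differ from the custom diets in more than their carbohydrate and fat. Age is not given in the sources used here, and the labels number the samples without saying more, so the p-values measure the spread between these samples.

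Interleukin 1 alpha and interleukin 1 beta are agonists of one receptor, made of Il1r1 and Il1rap, and the product of Il1rn occupies that receptor without signalling. Interleukin 1 beta and interleukin 18 are made as precursors that caspase 1 cuts inside inflammasomes, so their RNA level does not report the active protein. Tumour necrosis factor and interleukin 6 are secreted inflammatory cytokines, and interleukin 10 restrains myeloid cells. In obese adipose tissue macrophages gather around adipocytes and are a known source of several of these RNAs.

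The promoters of 3 members are shown because they differ in the letters next to the start and in what was measured: Tnf and Il1rn passed the test against chow, and Il6 did not. Each sequence is the 60 bases before the gene's first annotated start in RefSeq (GRCm38.p6), on the gene's strand, with a motif in capitals. In Tnf the capitals mark the letters TATAAA. In Il6 they mark a match to the NF-kappa B consensus, and in Il1rn neither motif was found.
Tnf, chr17:35202008-35202067, minus strand: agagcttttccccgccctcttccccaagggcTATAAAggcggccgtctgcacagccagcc
Il1rn, chr2:24336800-24336859, plus strand: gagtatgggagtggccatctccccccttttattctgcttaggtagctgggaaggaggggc
Il6, chr5:30013054-30013113, plus strand: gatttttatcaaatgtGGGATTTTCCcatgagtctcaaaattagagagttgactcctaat
Both motifs were searched on both strands of 300 bases around each start. TATAAA stood in 13.6% of all 32851 RefSeq windows of that length and the NF-kappa B consensus in 8.46%. In the 449 windows of tested panel genes the shares were 17.2% and 12.5%. Il1a and Il1b also held TATAAA on the gene's strand, at -32 and -31 from the start used, and Tnf at -29. Unlike that of Tnf, the starts used for Il1a and Il1b lie inside the annotated span of the gene. These 2 windows are therefore not printed. Il18 and 1 of the 3 starts of Il1rn held TATAAA on the opposite strand only, and the other 2 starts of Il1rn held neither motif. Il10 had no window and was not searched. A match is a run of letters, and its absence says only that these letters are not in the window.

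The libraries held between 396391 and 888687 barcode counts over the endogenous and reference genes, with a median of 635028. Each library was scaled by the geometric mean over its 14 reference genes, and every level below is such a scaled count unless called raw. Transcripts of the adipocyte list (Cfd, Pparg, Cd36 and Cebpb) were detected in every group, with summed levels from 24816 to 304740. The epithelium marker level was the mean log2 scaled count over 5 genes. It was highest in 7 libraries: sucrose/palmitate 2, starch/palmitate 1 and 3, starch/oleate 2 and 6, and Western 2 and 6. These are the libraries called apart in epithelium markers below. Sucrose/palmitate 2 was apart only narrowly, at 6.02 against 5.76 in starch/palmitate 7. Its summed level of these markers, 420.8, lay below the 628.5 of starch/palmitate 5, which was not set apart. In the other listed libraries that sum ran from 1595 to 29382. A ratio of 2 positive control probes was lower in all starch/palmitate (2.92 to 3.16) and sucrose/oleate (2.92 to 3.07) libraries than in all chow libraries (3.17 to 3.39). For those diets the positive control ratio and the diet cannot be told apart where that ratio moves with a gene.

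Several members lay close to the background. The 8 negative control probes had a mean raw count of 7.51, and a library's limit, their mean plus 2 SD, had a median of 14.8. Il1rn and Il18 exceeded the limit in 48 of 48 libraries, Il1b in 45 and Tnf in 44. Il6 and Il10 exceeded it in only 15 of 48 libraries each, and Il1a in 13. The Il1a libraries above the limit were unevenly spread: 7 of 9 on starch/oleate, 2 on each of chow, sucrose/palmitate and sucrose/oleate, and none on starch/palmitate or the Western diet. All 7 genes passed the filter of a mean raw count of 10, Il1a narrowly with a mean of 11.4. Il1a passed only through starch/oleate, where its mean raw count was 20.3, against 9.28 over the other 39 libraries.

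**Figure D1:**
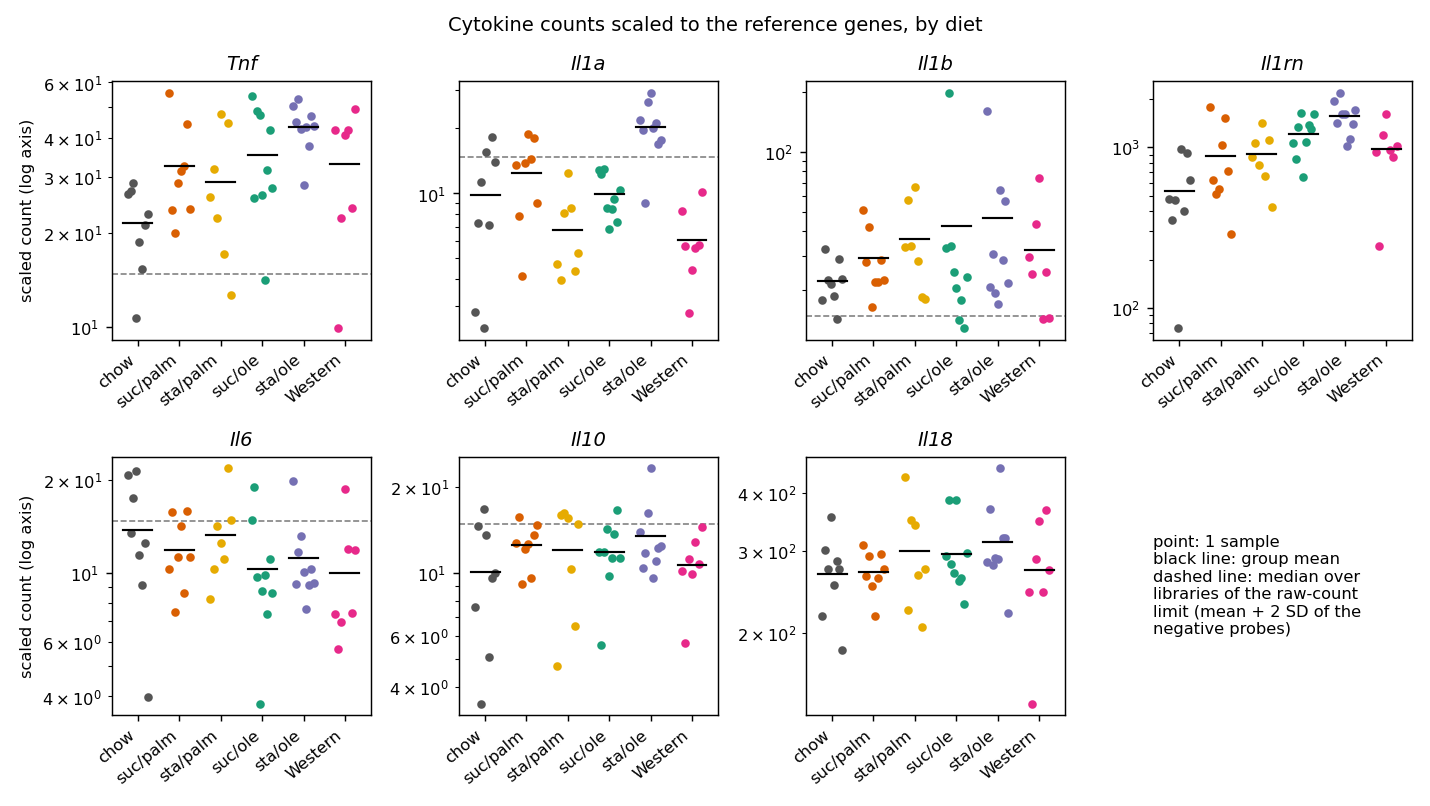
Scaled count of each of the 7 genes (log axis) in every sample, by diet. Points are samples and black lines are group means. The dashed line marks the median background limit of 14.8, a raw count drawn on the scaled axis. Il1rn, Tnf and Il1a sit highest on starch/oleate, Il1b has single high points at 199 and 161, and Il6 and Il10 straddle the limit.

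On starch/oleate 4 of the 7 cytokine genes were higher than on chow: Il1rn, Tnf, Il1a and Il1b. On sucrose/oleate 2 were higher, Il1rn and Tnf, and on the Western diet 1, Il1rn. None passed the test on sucrose/palmitate or starch/palmitate, and all 7 calls were in the direction of higher levels. Rises were common across the panel. Of the 491 genes tested, 48.3% were higher on starch/oleate, 28.9% on sucrose/oleate, 32.8% on the Western diet, 20.6% on starch/palmitate and 14.9% on sucrose/palmitate. In either direction 60.3%, 36.7%, 40.7%, 25.3% and 17.1% of genes passed on the same diets. For all diets but starch/oleate the members' share was therefore at or below the background, and for starch/oleate it was 4 of 7 against 48.3%. The median log2 difference from chow over the 7 members was 1.01 on starch/oleate, against 0.34 over all genes. On sucrose/oleate it was 0.25 against 0.19, and on the Western diet 0.13 against 0.25. The starch/oleate count and median include Il1a, which passed the count filter only through that group. They also include Il1b, whose call was lost without 1 library. These figures are therefore not read as a rise of the members as a set. All 5 comparisons share the 8 chow samples.

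The scaling sets part of this picture. Relative to the reference genes the median of all genes lay 0.19 to 0.34 (log2) above chow on the 5 diets, whereas under TMM scaling over the endogenous genes it lay 0.0097 to 0.080 above. The split of all calls on starch/oleate was 237 higher and 59 lower with reference genes, and 156 higher and 127 lower with TMM. Of the same 491 genes TMM gave 106 higher and 76 lower on sucrose/oleate, and 101 and 70 on the Western diet. It gave 72 and 55 on starch/palmitate, and 34 and 29 on sucrose/palmitate. Among the members TMM gave 3 higher and 1 lower on starch/oleate, 1 higher and 1 lower on sucrose/oleate, and 0 higher and 2 lower on the Western diet. Il6 was the member lower on all of these diets under TMM, joined by Il1a on the Western diet. Differences below are on the reference gene scale. For the 7 members the TMM value is given where it ends a call, and for the other genes the calls that TMM ended are named.

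**Figure D2:**
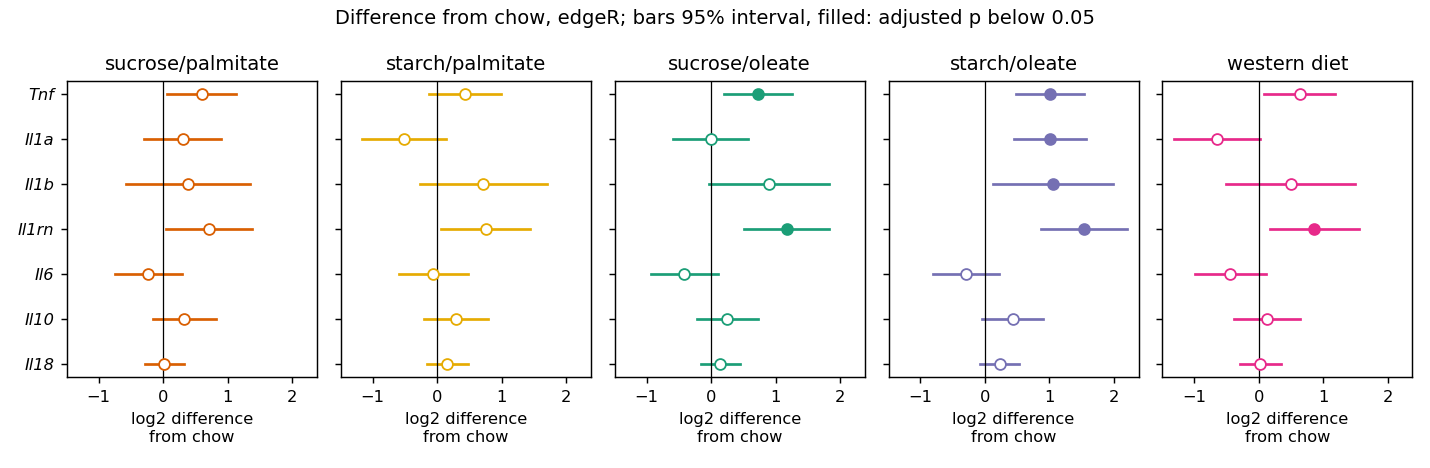
Log2 difference from chow of each gene on each diet (edgeR, reference gene scaling); bars are 95% intervals and filled points passed an adjusted p of 0.05. Filled points number 4 on starch/oleate, 2 on sucrose/oleate, 1 on the Western diet and 0 on both palmitate diets, and under TMM scaling Il6 falls on 3 diets.

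Il1rn, whose product blocks the interleukin 1 receptor, was higher than chow on 3 diets, and on the reference gene scale its estimated difference was the largest of the 7 genes on all 5. On chow its level ranged from 75.1 through a median of 475 to 969. On starch/oleate it ranged from 1011 through 1603 to 2182, so all 9 samples lay above the highest chow sample. Across the panel 19.6% of genes had every starch/oleate library above every chow library. The difference was 1.54 ± 0.33 (log2 ± SE), a 2.90-fold rise (adjusted p = 0.000109, edgeR quasi-likelihood test with Benjamini-Hochberg adjustment).

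On sucrose/oleate the Il1rn levels ran from 653 through 1302 to 1622, with 7 of 9 above the highest chow sample. The rise was 1.17 ± 0.33 (adjusted p = 0.0042), and with the positive control ratio added to the model it was 0.95 (adjusted p = 0.25). On the Western diet they ran from 242 through 966 to 1604, with 3 of 7 above the highest chow sample and a rise of 0.86 ± 0.34 (adjusted p = 0.041). The Western groups thus overlapped widely, and the call was lost under TMM (0.64, adjusted p = 0.11) and in 10 of 15 refits that each left out 1 library. On the palmitate diets the means were 876 ± 522 (SD, n = 8) with sucrose and 902 ± 322 (n = 7) with starch, against 536 ± 296 on chow (n = 8). Their differences of 0.71 ± 0.33 and 0.75 ± 0.34 did not pass the test (adjusted p = 0.13 and 0.093).

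In the order of Il1rn means, starch/oleate (1558 ± 370), sucrose/oleate (1210 ± 331), Western (973 ± 407), starch/palmitate, sucrose/palmitate and chow, no diet differed from the next beyond the spread, with adjusted p-values between 0.13 and 0.97. Of the 15 pairs of diets 4 passed, the 3 against chow and starch/oleate over sucrose/palmitate (0.83 ± 0.32, adjusted p = 0.038; 0.69 and 0.057 under TMM). Chow sample 4 held the lowest Il1rn level of all 48 libraries and also the lowest summed level of 12 macrophage markers, 4530. Without it the Il1rn differences on starch/oleate and sucrose/oleate still passed.

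Tnf encodes tumour necrosis factor, a cytokine long tied to obese fat tissue, and it was higher on both oleate diets. Chow samples lay between 10.7 and 28.8 with a median of 22.1. Starch/oleate samples lay between 28.3 and 53.3 with a median of 43.5, and 8 of 9 exceeded the highest chow sample. The rise was 1.01 ± 0.26, or 2.02-fold (adjusted p = 0.00088), and 0.68 (adjusted p = 0.051) with the B cell marker level in the model. It was also the tightest group of Tnf values, with a coefficient of variation of 16.8% against 29.2% to 46.04% in the others. Sucrose/oleate samples spread from 14.1 through 31.6 to 54.4, with 5 of 9 above the highest chow sample. Their rise of 0.72 ± 0.26 (adjusted p = 0.026) was lost under TMM (0.56, adjusted p = 0.061), with the positive control ratio added to the model (0.59, adjusted p = 0.35) and without any 1 of chow 4, chow 6, sucrose/oleate 1 or sucrose/oleate 3.

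Tnf means on the Western diet (32.99 ± 14.3, n = 7), sucrose/palmitate (32.5 ± 11.95, n = 8) and starch/palmitate (28.9 ± 13.3, n = 7) lay above chow (21.4 ± 6.2, n = 8). Their differences of 0.63 ± 0.28, 0.59 ± 0.27 and 0.43 ± 0.28 did not pass (adjusted p = 0.062, 0.11 and 0.24). No neighbours in the order of Tnf means passed the test, and 2 of 15 pairs did, both against chow. On the Western diet 4 of 7 samples exceeded the highest chow sample, while sample 2, at 9.95, lay below the lowest. Without the libraries apart in epithelium markers, which include that sample, the Western rise was 0.88 (adjusted p = 0.011).

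Il1a, the interleukin 1 agonist that is active without caspase cutting and is known to be released by damaged cells, passed the test against chow on starch/oleate alone of the 5 diets. Its counts passed the filter only through that same group, so its tests here and below were made only because starch/oleate was high. Starch/oleate samples ranged from 9.03 through 20.2 to 29.3, and 8 of 9 lay above the chow mean. Chow samples ranged from 2.38 through 9.31 to 18.3, and 6 of 9 starch/oleate samples lay above all of them. The rise was 1.01 ± 0.28, or 2.02-fold (adjusted p = 0.0016), and 0.72 (adjusted p = 0.063) with the B cell marker level in the model. Only 2 of the 8 chow libraries exceeded the background limit, so the size of this rise is not settled; it was 1.83 with negative controls subtracted. These are small raw counts: starch/oleate libraries held 10 to 29 Il1a barcodes and chow libraries 2 to 19, against negative probes of up to 21.

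Starch/oleate also differed from each of the other fat-rich diets in Il1a. It exceeded sucrose/oleate by 1.02 ± 0.27 (adjusted p = 0.0073), starch/palmitate by 1.53 ± 0.30 (adjusted p = 0.00027) and sucrose/palmitate by 0.72 ± 0.27 (adjusted p = 0.032; 0.073 under TMM). The Western diet minus starch/oleate was -1.67 ± 0.31 (adjusted p = 0.00036). On starch/palmitate and on the Western diet 0 of 7 libraries exceeded the background limit, so both differences are taken against background counts, and their size is not settled. These 4 and the difference from chow were the pairs of 15 that passed. Below starch/oleate the order was sucrose/palmitate (12.5 ± 5.1), sucrose/oleate (9.91 ± 2.34), chow (9.86 ± 5.89), starch/palmitate (6.79 ± 3.10) and Western (6.10 ± 2.44), and no neighbours among these passed. The 2 lowest means were below the mean negative probe count, so they carry no order of their own.

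In the fitted model the carbohydrate difference in Il1a was not the same with the 2 fats. With oleate, starch gave more than sucrose by 1.02 on the log2 scale; with palmitate, starch differed from sucrose by -0.81 ± 0.32 (adjusted p = 0.29). The interaction, the first step minus the second, was 1.83 ± 0.42 (adjusted p = 0.011), the third smallest p of the 491 genes. Il1a was among those genes only through its starch/oleate counts, so its rank is not independent of that group's high level. The palmitate arm of the interaction rests on starch/palmitate, where 0 of 7 libraries exceeded the background limit. With negative controls subtracted the interaction was 4.06 (adjusted p = 0.023), so its size is not settled. The Il1a interaction was the only one among the 7 members to pass, and across the panel 5.50% of genes passed in either direction. Members of the B cell list passed the same interaction in 4 of 4 tested genes, with a median of 2.10. It also passed in 2 of 3 mast cell markers, and under TMM in 0 of 3. Of the T cell markers 1 of 7 passed, of the macrophage markers 1 of 12, and of the epithelium markers 1 of 5, in the negative direction. With the B cell marker level as a covariate the Il1a interaction was 1.48 (adjusted p = 0.17), while Il1a and the B cell sum had a Spearman rho of 0.39 over the 48 samples. The 2 diets with low positive control ratios, starch/palmitate and sucrose/oleate, enter the interaction with the same sign, and with that ratio as a covariate it was 2.13 (adjusted p = 0.0495). The call was kept in all 33 refits that left out 1 library (1.72 to 2.06) and under TMM (1.71, adjusted p = 0.0092).

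**Figure D3:**
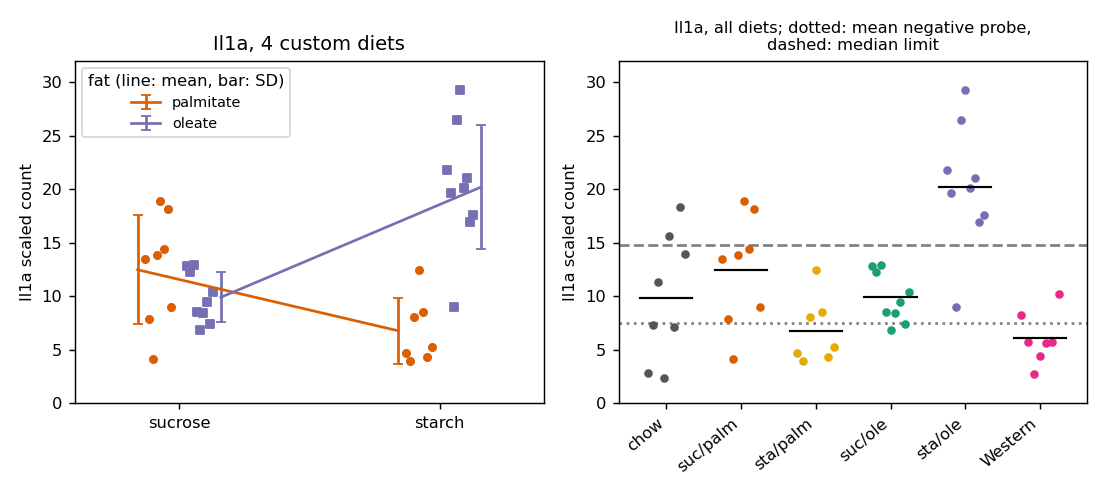
Left: Il1a scaled count on the 4 custom diets by carbohydrate, with lines joining the means of each fat and bars of 1 SD. Right: Il1a in all 6 groups, with the mean negative probe (dotted, 7.51) and the median limit (dashed, 14.8). Starch/oleate samples stand above the dashed line except 1 at 9.03, and all starch/palmitate and Western samples lie below it. Both lines are raw counts drawn on the scaled axis, and by each library's own limit 7 of 9 starch/oleate samples were above background.

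Il1b, the agonist made by activated neutrophils, monocytes and macrophages, was high in single samples rather than in a whole group. Starch/oleate samples had a median of 28.4 and a range of 17.2 to 161, with sample 1 at 161 and the next at 64.3. Sucrose/oleate samples had a median of 23.3 and a range of 12.9 to 199, with sample 2 at 199 and the next at 33.5. Chow samples lay between 14.3 and 32.2 with a median of 22.1, so the groups overlapped. The starch/oleate difference was 1.06 ± 0.46 (adjusted p = 0.046) and the sucrose/oleate one 0.90 ± 0.46 (adjusted p = 0.13).

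Without starch/oleate sample 1 the first fell to 0.53 (adjusted p = 0.29), and without sucrose/oleate sample 2 the other was 0.0075 (adjusted p = 0.99). TMM also ended the starch/oleate call (0.75, adjusted p = 0.14). The same 2 libraries held the highest levels of the neutrophil genes Cxcr2, a chemokine receptor (306 in starch/oleate 1 and 274 in sucrose/oleate 2), and S100a9, a calcium-binding protein (1456 and 2051). The whole list of 7 neutrophil genes summed to 4224 and 5261 in these libraries, and to between 280 and 2321 in the other 46. Its granule gene Camp (highest level 19.9) and its receptor gene Cxcr1 (highest 14.3) stayed near the negative probes in all libraries. With the neutrophil marker level, the mean log2 scaled count over the list's 7 genes, as a covariate the starch/oleate difference was -0.028 (adjusted p = 0.92). On starch/palmitate, where 4 of 7 samples exceeded the highest chow sample, the difference of 0.71 ± 0.49 did not pass (adjusted p = 0.27). The means on the Western diet (32.03 ± 20.9) and sucrose/palmitate (29.001 ± 11.6) lay between starch/palmitate (36.4 ± 18.6) and chow (22.4 ± 5.8), and no neighbours in the order passed. The starch/oleate call was also lost without the libraries apart in epithelium markers (1.09, adjusted p = 0.064) and in 9 of 17 refits without 1 library.

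Il6, Il10 and Il18 passed no comparison. Il6, which signals through Il6ra and Il6st, had group means from 10.01 ± 4.6 on the Western diet to 13.8 ± 5.9 on chow. Individual samples ran from 3.79 to 21.8, most of them under the background limit, with chow above the limit in 4 of 8 libraries and the others in 2 or 3 libraries each. The Il6 differences from chow ran from -0.44 ± 0.27 on the Western diet to -0.06 ± 0.26 on starch/palmitate, with intervals that reach down to -0.99. Under TMM 3 of them passed, at -0.60 on sucrose/oleate, -0.61 on starch/oleate and -0.67 on the Western diet (adjusted p = 0.046, 0.026 and 0.041). At these counts a level near the negative probes cannot show whether Il6 RNA was present.

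Il10, the anti-inflammatory cytokine, had means between 10.1 ± 4.6 on chow and 13.4 ± 4.2 on starch/oleate, and a range over all samples of 3.49 to 23.2. Its largest difference from chow, on starch/oleate, was 0.43 ± 0.23 (adjusted p = 0.11). It passed without the libraries apart in epithelium markers (0.53, adjusted p = 0.047) and without chow sample 4 (0.56, adjusted p = 0.041). Il18 was measured far above background and was nearly level. Its means lay between 268 ± 52 on chow and 314 ± 65 on starch/oleate, and its samples between 141 and 451. The starch/oleate difference was 0.23 ± 0.15 (adjusted p = 0.18, 95% interval -0.07 to 0.53), and no 95% interval against chow went beyond 0.53, which is the bound these data place on an Il18 rise.

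Across the 4 custom diets the comparison of fats passed for 2 members and the comparison of carbohydrates for none. Averaged over both carbohydrates, palmitate gave less Il1a than oleate by 0.61 on the log2 scale (-0.61 ± 0.21, adjusted p = 0.019) and less Il1rn (-0.63 ± 0.23, adjusted p = 0.033). Of all genes 23.6% were lower with palmitate and 10.8% higher. The Il1a average came from starch, and with sucrose its direction was opposite: sucrose/oleate minus sucrose/palmitate was -0.30 ± 0.29 (adjusted p = 0.55), with means of 9.91 and 12.5. The Il1a difference was lost without the libraries apart in epithelium markers (-0.56, adjusted p = 0.065). The Il1rn difference was lost in 7 of 33 refits that left out 1 library, with adjusted p-values up to 0.062. The Tnf difference was -0.36 ± 0.18 (adjusted p = 0.12). Sucrose minus starch over both fats passed for 0 of 7 members by edgeR (9.98% of all genes passed), and the largest of these differences was -0.24 ± 0.32, for Il1b. No member reached an unadjusted p of 0.05 there, the smallest being 0.29 for Il18, and DESeq2 also called 0. A test of any difference among the 6 groups passed for Il1a (adjusted p = 4.0e-05), Il1rn (0.0028) and Tnf (0.022), beside 64.8% of all genes.

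The antagonist was also set against its agonists within each sample. The log2 ratio of Il1rn to Il1b, which compares 2 probes and is therefore read only between groups, averaged 4.33 ± 1.197 (SD) on chow, 4.78 ± 0.86 on sucrose/palmitate and 4.70 ± 0.55 on starch/palmitate. It averaged 5.42 ± 1.38 on sucrose/oleate, 5.44 ± 1.12 on starch/oleate and 4.98 ± 0.97 on the Western diet. The group ranges overlapped, the lowest sucrose/oleate ratio being that of the sample with the highest Il1b, at 2.08. The ratio of Il1rn to Il1a averaged 5.78 on chow, 6.05 on sucrose/palmitate and 6.29 on starch/oleate, and 6.91 to 7.25 in the remaining groups. Il1a was at background in most libraries, and with negative controls subtracted the same ratio was 7.32 on chow and 7.10 on starch/oleate, so its direction against chow turned. No test was made of either ratio.

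**Figure D4:**
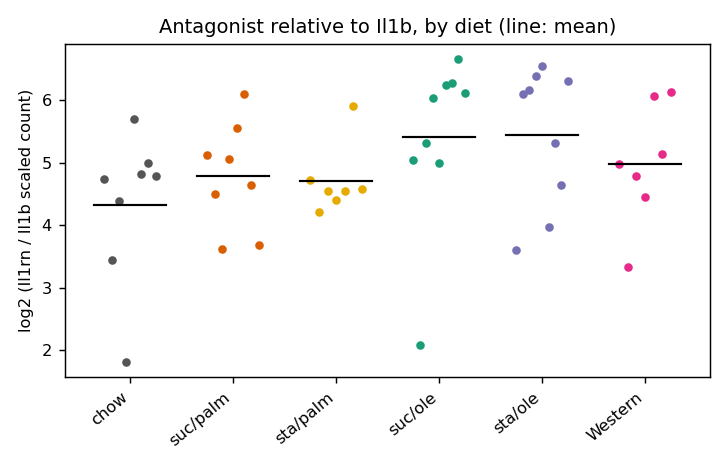
Log2 ratio of the Il1rn to the Il1b scaled count in every sample, by diet, with lines at the group means. Means run from 4.33 on chow to 5.44 on starch/oleate, and single samples reach down to 1.81 on chow and 2.08 on sucrose/oleate.

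The 7 genes did not vary as one group. Over the 48 samples the closest pair was Tnf and Il1rn, with a Spearman rho of 0.70 (0.58 after each diet's mean was subtracted). Il1b and Il18 reached 0.47, Il1a and Il1rn 0.43 and Tnf and Il1a 0.42, and the pairs of Il1b with Il1a and with Il1rn had 0.05 and 0.18. All these samples share their scaling, and Il6 and Il10 are largely background counts, so the coefficients are descriptions.

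Il1rn followed genes of phagocytes closely. Of the 490 other tested genes the nearest were Ctss, a lysosomal protease (rho 0.94), Cd48, an adhesion receptor of leukocytes (0.94), and Tyrobp, a signalling adaptor of myeloid receptors (0.94). Within diets the nearest were the leukocyte integrin subunit Itgb2 (0.93), Tnfsf12 (0.92) and the phagocyte oxidase subunit Ncf4 (0.91). Tnf was nearest to Arhgdib (0.77), Fcer1g (0.75) and Fcgr3 (0.75), the last 2 encoding parts of Fc receptors, and within diets to Clec5a, Lilrb4 and Cd44 (0.65 to 0.67). Il1a was nearest to the transcription factor Batf (0.62), Ptafr (0.59) and Fcgr2b (0.59), and within diets to Tmem173, Cd80 and Ccl6 (0.43 each).

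Il1b was nearest to Cxcr2 (0.80), S100a9 (0.72) and the myeloid lectin Clec4e (0.60), and without the 2 libraries of highest Il1b these were 0.77, 0.68 and 0.55 over 46 samples. Within diets Cxcr2 (0.84) and S100a9 (0.79) were again the nearest. Il18 was nearest to the complement protease gene C1s (0.65), Pml (0.63) and Ctsc (0.63), and within diets to C1s (0.80), C3 (0.72) and Pml (0.69). Il6 had no neighbour above 0.45 (Tgfbi, Cd40lg and Il16) or, within diets, above 0.52 (Cd40, Nfatc2 and Stat4). Il10 had none above 0.39 (Mbp, Tnfrsf13c and Tnfsf18) or, within diets, above 0.44 (Mbp, Tyk2 and Igf2r).

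Leukocyte markers also differed between diets, though not always where the members did. The 12 macrophage markers measured, which include Emr1, Cd14 and Csf1r, were higher than on chow in 10 genes on starch/oleate, 8 on sucrose/oleate, 8 on the Western diet, 7 on starch/palmitate and 4 on sucrose/palmitate, and lower in 1, 2, 2, 1 and 0. Of all genes 48.3%, 28.9%, 32.8%, 20.6% and 14.9% were higher on these diets. Under TMM the macrophage markers were higher in 10, 8, 7, 6 and 3 and lower in 1, 2, 2, 1 and 1. The summed level of these markers lay between 4530 and 14775 on chow, 8307 and 25010 on sucrose/palmitate and 8904 and 22526 on starch/palmitate. It lay between 16126 and 24178 on sucrose/oleate, 18125 and 30918 on starch/oleate and 6134 and 28779 on the Western diet. All 12 markers had counts above the filter. Il1rn had a Spearman rho of 0.91 with this sum (0.88 within diets), Tnf 0.74 (0.61), Il1a 0.39 (0.24) and Il1b 0.18 (0.14).

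With the macrophage marker level as a covariate 0 of the 4 starch/oleate calls and 0 of the 2 sucrose/oleate calls against chow passed, with Il1rn at 0.20 (adjusted p = 0.45) and 0.44 (adjusted p = 0.057). On the Western diet Il1rn was then 0.10 (adjusted p = 0.71), and Il1a became lower than on chow (-0.95, adjusted p = 0.025). The Il1a interaction was 1.68 (adjusted p = 0.0095) in that fit. In a whole fat pad more cells of a type and more RNA per cell cannot be told apart. Mast cell markers were higher in 3 of 3 genes on starch/oleate and on the Western diet, and in 1 of 3 on sucrose/palmitate and on sucrose/oleate. T cell markers were higher in 6 of 7 on starch/oleate and in 5 of 7 on starch/palmitate, where no member passed. They were higher in 4 of 7 on sucrose/oleate, 3 of 7 on the Western diet and 1 of 7 on sucrose/palmitate. The shares of all genes higher on each diet, given above for the macrophage markers, also stand beside these counts and the neutrophil, B cell and epithelium counts below. Neutrophil markers were higher in 3 of 5 tested on starch/oleate and 2 of 5 on sucrose/oleate. B cell markers were higher in 4 of 4 on sucrose/palmitate, where no member passed, and on starch/oleate and the Western diet, and in 0 of 4 on sucrose/oleate, where 2 members passed. With the B cell marker level in the model the starch/oleate differences were 1.34 for Il1rn (adjusted p = 0.0033) and 0.51 for Il1b (adjusted p = 0.45), and the Western Il1rn difference was 0.71 (adjusted p = 0.14). Adipocyte markers were lower in 2 or 3 of 4 on every diet, and epithelium markers were higher in 0 to 3 of 5. Of the 491 genes tested, 59 were lower on starch/oleate, 39 on the Western diet and 38 on sucrose/oleate. On starch/palmitate 23 were lower and on sucrose/palmitate 11. Under TMM T cell markers were higher in 5 of 7 on starch/palmitate and 4 of 7 on starch/oleate. They were higher in 2 of 7 on sucrose/oleate and in 1 of 7 on the Western diet and on sucrose/palmitate. Neutrophil markers were then higher in 1 of 5 on sucrose/oleate, and adipocyte markers were lower in 3 or 4 of 4 on every diet. Over all 491 genes TMM gave between 34 (sucrose/palmitate) and 156 (starch/oleate) higher, and between 29 and 127 lower on the same 2 diets. The part of these other markers in the cytokine results was not tested, apart from the covariate fits given.

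**Figure D5:**
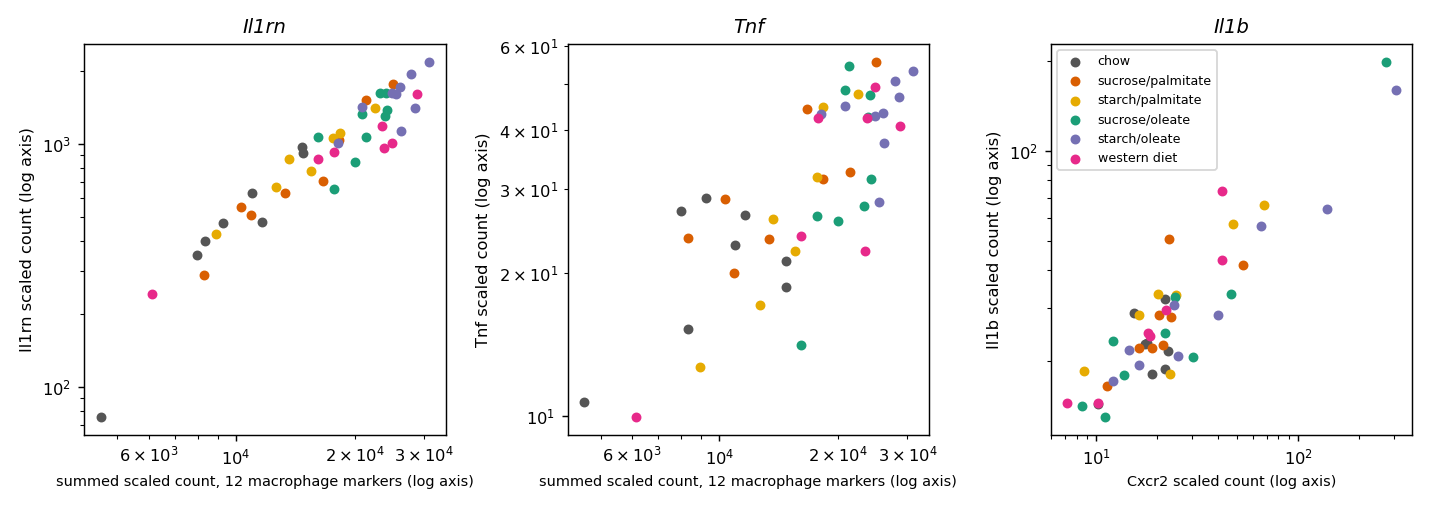
Il1rn (left) and Tnf (middle) against the summed scaled count of 12 macrophage markers, and Il1b (right) against Cxcr2, in 48 samples coloured by diet, all axes logarithmic. Il1rn lies along a narrow band (Spearman rho 0.91), Tnf along a wider one (0.74), and the 2 samples with the highest Il1b, at 199 and 161, have Cxcr2 levels of 274 and 306.

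Receptors of the 7 cytokines were more often higher than lower. Of the 10 measured, 7 were higher on starch/oleate, 6 on the Western diet, 5 on sucrose/oleate, 3 on starch/palmitate and 2 on sucrose/palmitate, and none was lower. Beside them stand 48.3%, 32.8%, 28.9%, 20.6% and 14.9% of all genes higher, so the counts on the palmitate diets lie near the background. Under TMM these were 6, 3, 4, 3 and 1 higher, with 2 lower on starch/oleate, 2 on starch/palmitate and 1 on the Western diet. Il1rap, the shared signalling chain of the interleukin 1 receptor, was higher on all 5 diets, from 0.47 ± 0.12 on sucrose/palmitate (adjusted p = 0.012) to 0.74 ± 0.12 on starch/oleate (adjusted p = 1.3e-06), also under TMM. Il10rb, a chain of the interleukin 10 receptor, was higher by 0.86 ± 0.13 on starch/oleate and by 0.62 ± 0.13 on sucrose/oleate, and lower with palmitate than with oleate (-0.56 ± 0.10, adjusted p = 4.4e-05). Tnfrsf1b, a tumour necrosis factor receptor, was higher on the Western diet by 0.72 ± 0.21 and lower with palmitate than with oleate (-0.53 ± 0.14). Il18r1 was higher on starch/palmitate by 0.71 ± 0.20 and Il1r1, the interleukin 1 signalling receptor, on sucrose/palmitate by 0.48 ± 0.17 (0.36, adjusted p = 0.15, under TMM). Il1rap was also the 1 receptor that passed between carbohydrates, lower with sucrose than with starch (-0.25 ± 0.08, adjusted p = 0.049). Under TMM it was -0.17 (adjusted p = 0.15), and the list then held 1 higher gene and no lower one.

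Of 9 genes listed for inflammasomes only Casp1, which cuts the precursors of interleukin 1 beta and interleukin 18, and Nod2 were measured. Casp1 was higher on starch/oleate (1.03 ± 0.19, adjusted p = 9.6e-06), sucrose/oleate (0.76 ± 0.18), the Western diet (0.65 ± 0.19) and starch/palmitate (0.61 ± 0.19), and lower with palmitate than with oleate (-0.42 ± 0.13). All of these passed under TMM as well. Nod2 passed no comparison.

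Adaptors behind the interleukin 1 and toll-like receptors moved both ways. Irak2, a kinase-like adaptor, was lower on all 5 diets, from -0.23 ± 0.09 on sucrose/oleate (adjusted p = 0.033) to -0.52 ± 0.09 on the Western diet (adjusted p = 3.4e-05), also under TMM. Of the 8 measured, 3 were higher on starch/oleate, led by the kinase Irak4 (0.50 ± 0.09), 2 on sucrose/oleate, led by the adaptor Myd88 (0.29 ± 0.09), and 1 on the Western diet, Myd88 (0.43 ± 0.10). Myd88 (-0.25 ± 0.07) and Irak4 (-0.21 ± 0.07) were lower with palmitate than with oleate, and under TMM neither passed (-0.15 and -0.11, adjusted p = 0.12 and 0.11). The Myd88 rises also ended under TMM, on sucrose/oleate (0.10, adjusted p = 0.49) and on the Western diet (0.28, adjusted p = 0.058). The shares higher, 3 of 8, 2 of 8 and 1 of 8, stand beside 48.3%, 28.9% and 32.8% of all genes. Under TMM this list had 1 higher and 4 lower genes on starch/oleate and none higher on the other diets.

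The 5 measured adaptors of tumour necrosis factor receptors were higher in 5 genes on the Western diet, 4 on starch/oleate, 4 on starch/palmitate, 3 on sucrose/palmitate and 2 on sucrose/oleate, and in 2, 3, 1, 1 and 2 under TMM. Of all genes 32.8%, 48.3%, 20.6%, 14.9% and 28.9% were higher on these diets. Tnfaip3, the A20 protein that shuts off NF-kappa B signalling, was higher on starch/oleate by 0.90 ± 0.13 (adjusted p = 2.0e-07) and on sucrose/oleate by 0.86 ± 0.13 (adjusted p = 2.4e-06), and lower with palmitate (-0.51 ± 0.09, adjusted p = 4.5e-05). Traf5 was higher on the Western diet by 0.56 ± 0.11, on starch/oleate by 0.70 ± 0.11 and on sucrose/palmitate by 0.44 ± 0.11, where Traf2 was higher by 0.36 ± 0.10 (0.21, adjusted p = 0.15, under TMM). Traf1 led on starch/palmitate, at 0.68 ± 0.22.

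The genes of the interleukin 6 and interleukin 10 signal, 8 measured, rose in 2 on starch/oleate, Tyk2 (0.47 ± 0.10) and Socs1 (0.54 ± 0.21), in Socs1 on starch/palmitate (0.59 ± 0.22) and in Stat3 on the Western diet (0.22 ± 0.08). Tyk2 is a kinase bound to the receptors, Stat3 the transcription factor they activate and Socs1 a feedback inhibitor. These shares lie below those of all genes. None of these rises passed under TMM, where 2 genes of the list were lower on starch/oleate and 1 on the Western diet. Of 30 other cytokine ligands measured, 15 were too low to test, among them Il2, Il4, Il5, Il17a and Il22. Of the 15 tested, 4 were higher and 2 lower on starch/oleate, led by Tgfb1 (1.01 ± 0.16) and Ltb (1.30 ± 0.26), and 3 higher and 1 lower on the Western diet, led by Tgfb1 (0.61 ± 0.16) and Il33 (0.78 ± 0.22). On sucrose/oleate 2 were higher and 1 lower, with Tgfb1 at 0.65 ± 0.16 and Tslp at -0.50 ± 0.15. Sucrose/palmitate had 2 higher (Il12a and Ltb, each 0.72) and starch/palmitate 1 (Il15, 0.50 ± 0.18). Of all genes 48.3% were higher on starch/oleate, 32.8% on the Western diet, 28.9% on sucrose/oleate, 14.9% on sucrose/palmitate and 20.6% on starch/palmitate. The share of these ligands that was higher lay below that of all genes on each diet. Between fats Tgfb1 was lower (-0.51 ± 0.11) and Il13 higher (0.62 ± 0.16) with palmitate. TMM gave 2 higher and 6 lower on starch/oleate, 1 and 4 on sucrose/oleate, 0 and 3 on starch/palmitate, 2 and 2 on the Western diet, and none on sucrose/palmitate. The rises of Il12a, of Ltb on sucrose/palmitate and of Il15 did not pass there (0.56, 0.56 and 0.35, adjusted p = 0.063, 0.069 and 0.13).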

How the data were processed

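Raw barcode counts per probe, whole numbers not scaled between samples, were used as deposited by the authors; the table held 14 reference genes, 8 negative and 6 positive control probes, its lowest value was 1, and the software that made it is not given in the sources used here. Groups and replicate numbers came from the labels. The quasi-likelihood functions of edgeR 4.0.16 under R 4.3.3 were run over all 48 samples, with offsets from the geometric mean of the reference genes, for the 491 of 547 genes whose mean count reached 10. The p-values were Benjamini-Hochberg adjusted over the 491 genes, with a threshold of 0.05.

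The members, gene lists and tests were chosen with earlier results of these data known. Named genes were the 7 members, up to 2 genes with the smallest p per list and comparison, and the 3 genes nearest each member by Spearman correlation; 1 gene this rule selects is not reported here. Irak2 on sucrose/oleate was named after its value was seen. On data simulated for starch/oleate against chow (485 genes) 63.5% of 1.5-fold, 93.3% of 2-fold and 98.4% of 4-fold changes were called, and 1.72% of unchanged genes.

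Probe identifiers matched RefSeq (GRCm38.p6) for 549 of 561 genes, and for all 7 members. No 2 libraries were copies of each other (lowest chi-square per degree of freedom 5.14 over 1128 pairs). Alternatives tried were TMM scaling, 2 other count filters, a replicate block, DESeq2 1.42.0, robust dispersions, subtraction of negative controls, a positive control covariate, fits without the libraries apart in epithelium markers, on the compared groups only, and without each library. Leaving out the 2 libraries of highest Il1b, and the macrophage, neutrophil and B cell covariates, were added after seeing the data. Each of these covariates was a library's mean log2 scaled count over the measured genes of the list, not their summed level. Genes of a list that lay near the negative probes were included.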

Additional observations from a re-analysis of the deposited data

Results flagged for a closer look

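Within a diet 4 values stood far from the other samples of their group, by the gap to the nearest value as a share of the range, out of 42 groups of values looked at, where chance gives about 1 in 20. They were Il1b in sucrose/oleate sample 2 (199 against 33.5 for the next), Il1b in starch/oleate sample 1 (161 against 64.3), Il6 in starch/oleate sample 1 (19.9 against 13.2) and Il10 in starch/oleate sample 5 (23.2 against 16.3). The Il6 and Il10 values are raw counts of 20 and 23, close to the highest negative probe count of 21. Starch/oleate sample 5 also held the highest Il1a level, 29.3. Its B cell marker sum of 630 was close to the 628 of starch/oleate sample 2, where Il1a was 19.6. Its T cell marker sum of 576 was the highest of all 48 libraries.

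The estimated Il1a difference between starch and sucrose was of opposite sign with oleate and with palmitate, and the interaction of 1.83 (log2) passed the edgeR test. With palmitate alone the difference did not pass (-0.81, adjusted p = 0.29), and 0 of 7 starch/palmitate libraries exceeded the background limit. With the B cell marker level as a covariate the interaction was 1.48 (adjusted p = 0.17).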

How the results depend on the processing

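Counts of members that passed moved as follows. Under TMM the Western count went from 1 to 2 (Il1a and Il6, both lower), and the pairs of diets called went to 1 for Tnf, 0 for Il1b, 2 for Il1rn and 3 for Il6. The Western count was also 2 with DESeq2, without the libraries apart in epithelium markers and with the neutrophil covariate, and 0 on the compared groups only, with the B cell covariate and with the replicate block (Il1rn 0.78, adjusted p = 0.10). The palmitate against oleate count went from 2 to 1 with a mean count of at least 30, with the replicate block and without the epithelium libraries, and to 0 with the macrophage covariate. The sucrose/oleate count went from 2 to 0 with the positive control covariate and with the macrophage covariate. The starch/oleate count went from 4 to 0 with the macrophage covariate and to 1 with the B cell covariate, and the count for any difference from 3 to 1 with the macrophage covariate. The interaction count went from 1 to 0 with a mean count of at least 30, since Il1a was then not tested, and with the B cell covariate. Leaving out 1 library gave counts of 0 to 2 for the Western diet, 1 to 2 for sucrose/oleate, 0 to 1 for starch/palmitate and 1 to 2 for palmitate against oleate. With the neutrophil covariate the Il1b starch/oleate difference turned to -0.028. With negative controls subtracted the Il1rn to Il1a ratio became 7.32 on chow, 7.78 on sucrose/palmitate, 9.31 on starch/palmitate, 8.89 on sucrose/oleate, 7.10 on starch/oleate and 9.19 on the Western diet, and the Il1a interaction 4.06 (adjusted p = 0.023). Except where an alternative's construction shows it, the cause was not tested.

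With the positive control covariate counts over all genes fell from 180 to 31 on sucrose/oleate, 124 to 15 on starch/palmitate and 84 to 40 on sucrose/palmitate, and for the interaction from 27 to 5. On sucrose/palmitate the count was 55 with the replicate block, 20 on the compared groups only, 47 with the neutrophil covariate and 9 with the B cell covariate, and 23 to 112 leaving out 1 library. With the macrophage covariate it was 102 on sucrose/oleate (from 180), 158 on starch/oleate (from 296) and 102 between fats (from 169). For sucrose against starch it was 29 with the replicate block and 30 with negative controls subtracted (from 49), and 24 to 61 leaving out 1 library. The interaction count was 0 with the B cell covariate. Across diets, samples that share a replicate number correlated by -0.015 on average (112 pairs) and other samples by 0.0063 (846 pairs). Single pairs that share a number ran from -0.60 to 0.72. No pairing by number was seen on average, and an average cannot exclude it for some of the samples. Depth limits Il1a, Il6 and Il10, whose counts lie near the negative probes.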
